A study of Mus musculus with 48 samples.

Results

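The 8 genes described here encode receptors first known from natural killer (NK) cells: Klrk1, Klrd1, Klrc1, Klrc2, Klrb1c, Klrg1, Klre1 and Ncr1. They were chosen by symbol from the 34932 genes of the annotation used, with earlier results of these data known. Their transcripts were measured by RNA sequencing in 48 libraries from C57BL/6J mice carrying subcutaneous B16F10 melanoma, a transplantable mouse skin tumor line. The libraries form 12 groups of 4: CD8+ T cells, CD4+ T cells and CD45+ CD4- CD8- cells, each sorted live from the tumor (tumor-infiltrating leukocytes, TILs) or from the tumor-draining inguinal lymph node (TDLN), in wild-type (WT) and CD4Cre Yap flox (Yap-cKO) mice. The Yap-cKO mice are described as Yap-loxP/loxP; LSL-EYFP; CD4-Cre animals compared with littermates, and whether the WT animals carried Cre or the reporter is not given in the sources used here. Yap1, the deleted gene, encodes a transcriptional co-activator of the Hippo pathway. CD4-Cre acts in developing T cells, so most of the CD45+ CD4- CD8- cells, which hold NK cells, B cells and myeloid cells, come from lineages in which Yap is not deleted. Those cells are called CD45 cells below.

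NK-type receptors let a lymphocyte weigh activating against inhibitory ligands on the cell it touches. On NK cells they are present without any antigen contact, whereas CD8+ T cells gain many of them after activation, when they set the threshold for killing and for cytokine release. Klrk1 encodes NKG2D, an activating receptor for stress-induced ligands such as the Raet1 family, which signals through the adaptors DAP10 (Hcst) and DAP12 (Tyrobp). Klrd1 encodes CD94, which pairs with inhibitory NKG2A (Klrc1) or activating NKG2C (Klrc2) to read Qa-1, the product of H2-T23. Klrb1c encodes NK1.1, the marker by which NK cells are recognised in C57BL/6 mice. Klrg1 encodes an inhibitory receptor for E- and N-cadherin that marks effector T cells and regulatory T cells, Klre1 encodes a relative of CD94 in the same gene cluster, and Ncr1 encodes NKp46, the most NK-restricted receptor of the group.

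On the mouse GRCm38 assembly, 7 of the 8 genes lie on chromosome 6. Klrg1 (ENSMUSG00000030114.8) spans bases 122270596 to 122282882 on the minus strand, and Klrb1c (ENSMUSG00000030325.16) spans 128778485 to 128789215 on the minus strand. Klre1 (129577905 to 129585827, plus strand), Klrd1 (129591782 to 129598775, plus strand), Klrk1 (129610323 to 129623864, minus strand), Klrc2 (129647496 to 129660689, minus strand) and Klrc1 (129666015 to 129678973, minus strand) follow each other in the NK gene complex. Ncr1 lies on chromosome 7, from 4337724 to 4345164 on the plus strand. Klrc1 and Klrc2 are close copies of each other and of Klrc3, and Klrb1c has close relatives and is overlapped on the same strand by Gm44511, so reads shared between such genes were divided by estimation and these values carry that uncertainty.

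The promoter windows of Klrk1, Klrc1 and Klrc2 are shown because these are genes of the cluster whose transcripts were called higher together in Yap-cKO CD8 TILs and for which RefSeq gave a window. Each runs from 250 bases before to 50 bases after an annotated start on GRCm38.p6 and is written 5′ to 3′ along the gene. Capitals mark GGAATG, a core of the TEAD sites through which Yap acts, and TGTGGT, a core of RUNX sites, each searched on both strands, so that a match on the opposite strand reads as its complement. The Klrk1 window, at chr6:129623815-129624114 on the minus strand, held GGAATG from base 106 and TGTGGT from base 122. It covers the upstream start of the transcripts Klrk1-202 and Klrk1-205. The start of Klrk1-201, at 129622772, lies outside this window and was not searched, and the shares of these transcripts are given below. The Klrc1 window is at chr6:129678924-129679223 and the Klrc2 window at chr6:129660547-129660846, both on the minus strand.
Klrk1: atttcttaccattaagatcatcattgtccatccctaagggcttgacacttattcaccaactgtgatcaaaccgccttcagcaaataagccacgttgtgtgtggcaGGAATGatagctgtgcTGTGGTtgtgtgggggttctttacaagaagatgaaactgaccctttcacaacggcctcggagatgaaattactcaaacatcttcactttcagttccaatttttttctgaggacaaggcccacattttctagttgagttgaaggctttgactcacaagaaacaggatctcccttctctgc
Klrc1: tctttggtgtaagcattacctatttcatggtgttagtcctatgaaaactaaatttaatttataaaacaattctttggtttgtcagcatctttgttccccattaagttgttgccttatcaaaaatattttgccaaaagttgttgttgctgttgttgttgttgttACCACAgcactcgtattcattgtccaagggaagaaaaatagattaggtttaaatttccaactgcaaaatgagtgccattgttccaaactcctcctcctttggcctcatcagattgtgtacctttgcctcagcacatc
Klrc2: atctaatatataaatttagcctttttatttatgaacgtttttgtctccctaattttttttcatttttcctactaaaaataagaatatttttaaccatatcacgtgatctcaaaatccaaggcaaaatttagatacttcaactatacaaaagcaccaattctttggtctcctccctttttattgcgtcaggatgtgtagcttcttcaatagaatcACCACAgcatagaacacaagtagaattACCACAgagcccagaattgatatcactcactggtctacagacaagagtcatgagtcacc
RUNX letters were present in a window of all 6 members that had one (Klrk1, Klrc1, Klrc2, Klrb1c, Klre1 and Ncr1), TEAD letters in 2 (Klrk1 and Klre1), and the T-box core GGTGTG in 0. Of 32851 promoter windows of this length, 16.8% held the RUNX letters, 14.7% the TEAD letters and 19% the T-box letters. No window was given for Klrd1 and Klrg1.

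Each library held between 12656302 and 24213689 counts assigned to genes, with a median of 17870047, and 3 counts, taken as the floor, corresponded to 0.124 to 0.237 CPM (counts of a library brought to a shared scale). Cd8a was 218 to 1288 CPM in the CD8 sorts, 3.00 to 10.8 in the CD45 cells and 0.34 to 7.43 in the CD4 sorts, and Cd3e was 1.36 to 13.2 CPM in the CD45 cells, and Cd4 was 103.7 to 1062 CPM in the CD4 sorts, so the sorts carried their defining transcripts. The CD8 TIL libraries differed in composition by genotype. The summed T lineage markers (15 genes such as Cd3e, Lck and Trac) reached 2430, 2741, 6876 and 5846 CPM in WT replicates 1 to 4 and 7740 to 8420 CPM in Yap-cKO. The melanoma markers (7 genes such as Mlana and Dct) were 3660 to 13167 CPM in WT against 38.6 to 2368 CPM in Yap-cKO. The macrophage and monocyte markers (7 genes) were 258 to 598 CPM in WT and 634 to 1794 CPM in Yap-cKO, with 5 of 7 called higher, and the NK lineage markers (16 genes such as Klra8 and Gzma, some of which T cells also express) were 381 to 1666 CPM in WT and 1495 to 2918 CPM in Yap-cKO, with 2 of 15 tested called higher. The NK lineage sum was 1265 to 2315 CPM in WT CD8 TDLN cells, above the 342 to 470 CPM of WT CD45 TDLN cells. It is thus not particular to NK cells, here and below. WT replicates 1 and 2 stood apart with the least T lineage RNA. Yap1 was 12.9 to 27.1 CPM in WT CD8 TILs and 2.37 to 6.37 in Yap-cKO, but 2.09 to 2.59 against 1.13 to 4.53 in CD8 TDLN cells. Its count covers any exons that the deletion leaves. The fibroblast markers (4 genes) were 14.4 to 213 CPM in WT CD8 TILs against 2.71 to 6.87 CPM in Yap-cKO. The part of RNA from such cells and from melanoma cells in the Yap1 difference was not tested. Eif2s3y and Ddx3y, which lie on the Y chromosome, each exceeded 5 CPM in WT replicates 1 to 3 of every group and reached at most 0.444 CPM in WT replicate 4 and in the Yap-cKO libraries. Genotype was thus partly confounded with the sex of the mice, and apart from WT replicate 4 they cannot be told apart. The covariate used below separates them mainly through that library and adds no further handle.

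The 8 receptors fell into patterns that followed the sorted cell type (the plot of receptor levels in each library). Klrb1c and Ncr1 were led by the CD45 cells. Klrk1, Klrd1, Klrc1, Klrc2 and Klre1 had their highest group mean in Yap-cKO CD8 TILs, and Klrg1 in Yap-cKO CD4 TILs. For Klrk1, all 11 pairs of neighbouring groups in the order of means overlapped, and for the other genes 8 to 10 of 11 did, so most neighbours in these orders did not differ beyond their spread.

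**Figure D1:**
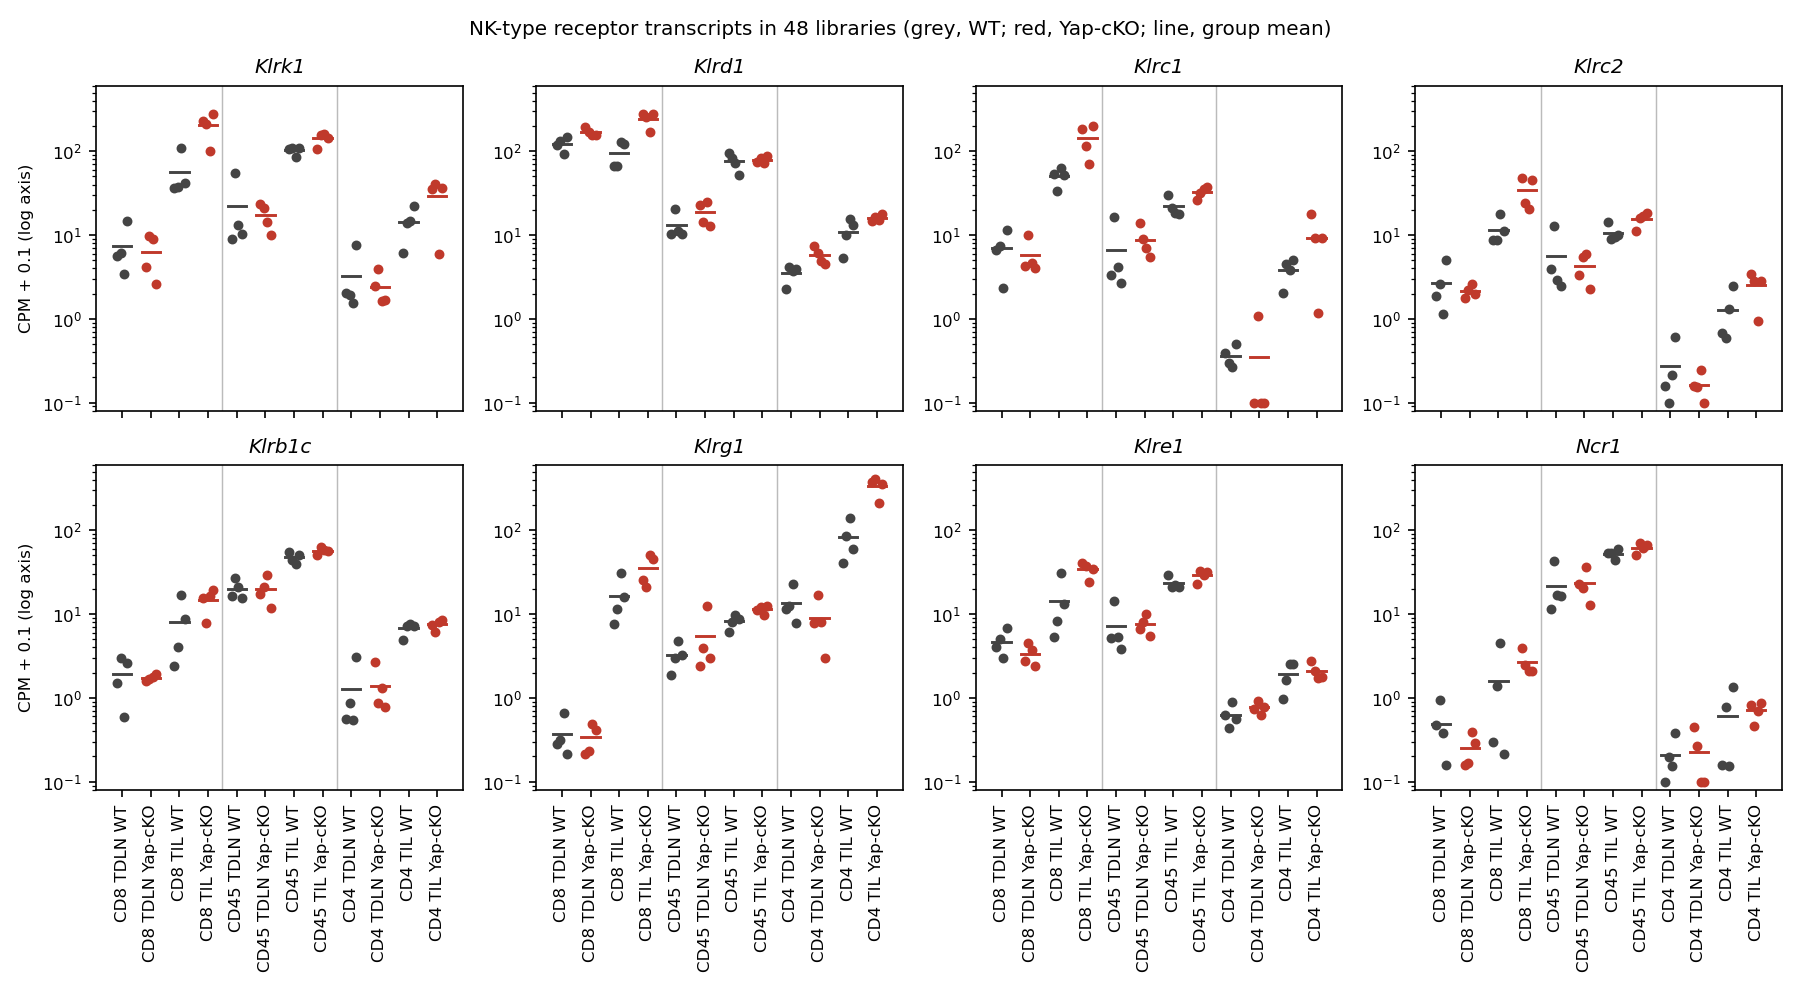
CPM plus 0.1 on a log axis for each receptor in the 12 groups, 4 points per group (grey WT, red Yap-cKO) with a line at the group mean. Klrb1c and Ncr1 are highest in the CD45 TILs, Klrg1 in the CD4 TILs, and Klrk1 spans from 1.45 CPM in CD4 TDLN cells to 275 CPM in CD8 TILs.

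Klrk1, the NKG2D gene, was 36.8, 36.9, 107.8 and 41.1 CPM in the 4 WT CD8 TIL libraries and 227, 213, 101.5 and 275 CPM in the 4 Yap-cKO CD8 TIL libraries. Yap-cKO replicate 3 lay just under WT replicate 3, so the groups overlapped, while the other 3 libraries of each group were well apart. The group means were 55.7 ± 34.9 and 204 ± 73.5 CPM (SD, n = 4). The difference was 1.92 ± 0.44 on the log2 scale (SE; adjusted p = 0.0249 by the quasi-likelihood test of edgeR, adjusted by Benjamini-Hochberg over all genes tested, as are all adjusted p-values below), a 3.78-fold higher level in Yap-cKO. In bulk RNA, fewer cells of a type and less RNA per cell cannot be told apart.

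The CD94 and NKG2 genes, which encode the subunits of the Qa-1 receptors, were also higher. Klrd1 was 66.5, 67.0, 127.5 and 122 CPM in WT CD8 TILs and 274, 255, 171 and 278 CPM in Yap-cKO CD8 TILs. Every Yap-cKO library was above every WT library, and the difference was 1.39 ± 0.30 log2 (adjusted p = 0.0209). Klrc1, for inhibitory NKG2A, measured 53.2, 33.7, 62.4 and 51.7 CPM in the WT libraries, while the Yap-cKO libraries had 184, 114, 69.8 and 199.7 CPM. The groups did not overlap, though Yap-cKO replicate 3 was close to the WT range (1.54 ± 0.36 log2, adjusted p = 0.025). Klrc2, for activating NKG2C, measured 8.52, 8.61, 17.5 and 11.1 CPM in the WT libraries, while the Yap-cKO libraries had 47.2, 23.8, 20.6 and 44.9 CPM, again without overlap (1.61 ± 0.37 log2, adjusted p = 0.0248). The inhibitory and the activating partner thus had differences of like size, and the ratio of Klrc2 to Klrc1 in TPM (transcript abundance per length) was 0.242 ± 0.0518 in WT and 0.237 ± 0.0263 in Yap-cKO CD8 TILs (SD, n = 4).

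These 4 of the 8 receptors were called higher in Yap-cKO CD8 TILs, where called means an adjusted p under 0.05 and a log2 change over 1 in size, and 0 were called lower. Among all 14121 genes tested, 12.2% were called, 3.03% higher and 9.14% lower. For 3 of the 8 genes the groups did not overlap, against 8.18% of all genes without overlap and higher. The median difference was 1.34 log2 over the 8 receptors and 0.08 over all genes. The other 4 receptors did not pass. Klrb1c differed by 0.91 ± 0.58 log2 (adjusted p = 0.28), Klrg1 by 1.17 ± 0.46 (adjusted p = 0.105), Klre1 by 1.29 ± 0.49 (adjusted p = 0.1) and Ncr1 by 0.78 ± 0.89 (adjusted p = 0.554), with overlapping groups each time. The Ncr1 values show how low that gene is in CD8 TILs: 0.201, 1.29, 4.38 and 0.115 CPM in WT against 3.81, 2.38, 1.99 and 2.01 CPM in Yap-cKO.

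The T lineage, macrophage and NK lineage markers given above moved with these 4 calls in CD8 TILs, and their part in them was not tested beyond the scaling on T lineage markers that follows (the plot of receptor level against T lineage markers). Per 1000 CPM of T lineage markers, Klrk1 was 15.1, 13.5, 15.7 and 7.03 CPM in WT against 27, 27.2, 12.4 and 35.6 CPM in Yap-cKO, and Klrd1 was 27.4, 24.5, 18.5 and 20.9 CPM in WT against 32.6, 32.5, 20.9 and 35.9 CPM in Yap-cKO. On this scale the groups overlapped for both genes. With libraries scaled on the T lineage markers, 0 of the 8 receptors were called and the differences were 0.99 log2 for Klrk1 (adjusted p = 0.0711), 0.42 for Klrd1, 0.44 for Klrc1, 0.61 for Klrc2 and 0.04 to 0.53 for the other 4. The same scaling moved the median of all genes from 0.08 to -1.07 log2 and the calls from 428 higher and 1291 lower to 6 higher and 5465 lower. Relative to the median gene, Klrk1 stood 1.84 log2 higher before and 2.07 after this scaling, Klrd1 1.31 and 1.49, Klrc1 1.46 and 1.52, and Klrc2 1.54 and 1.69. Klrb1c moved more, from 0.84 to 1.27, as did Klre1, from 1.21 to 1.60, and Ncr1, from 0.70 to 1.11. A change of scaling shifts the differences of all genes together, though not by exactly the same amount. Distances from the median gene, here and below, are therefore kept in large part by construction and do not test the differences. Without WT replicates 1 and 2, a choice made after seeing the data, 0 receptors were called, with Klrk1 at 1.49 log2, Klrd1 at 1.00, Klrc1 at 1.35 and Klrc2 at 1.28 (adjusted p = 0.178 to 0.209). The number called was 0 without WT replicate 1, WT replicate 2, Yap-cKO replicate 2 or Yap-cKO replicate 4, it was 1 (Klrd1) without WT replicate 4 or Yap-cKO replicate 1, 4 without Yap-cKO replicate 3 and 7 without WT replicate 3, always in the direction of higher levels. With the Y-linked genes as a covariate 0 were called, with Klrk1 at 2.45 log2, Klrd1 at 1.24, Klrc1 at 1.63 and Klrc2 at 1.78 (adjusted p = 0.121 to 0.148).

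**Figure D2:**
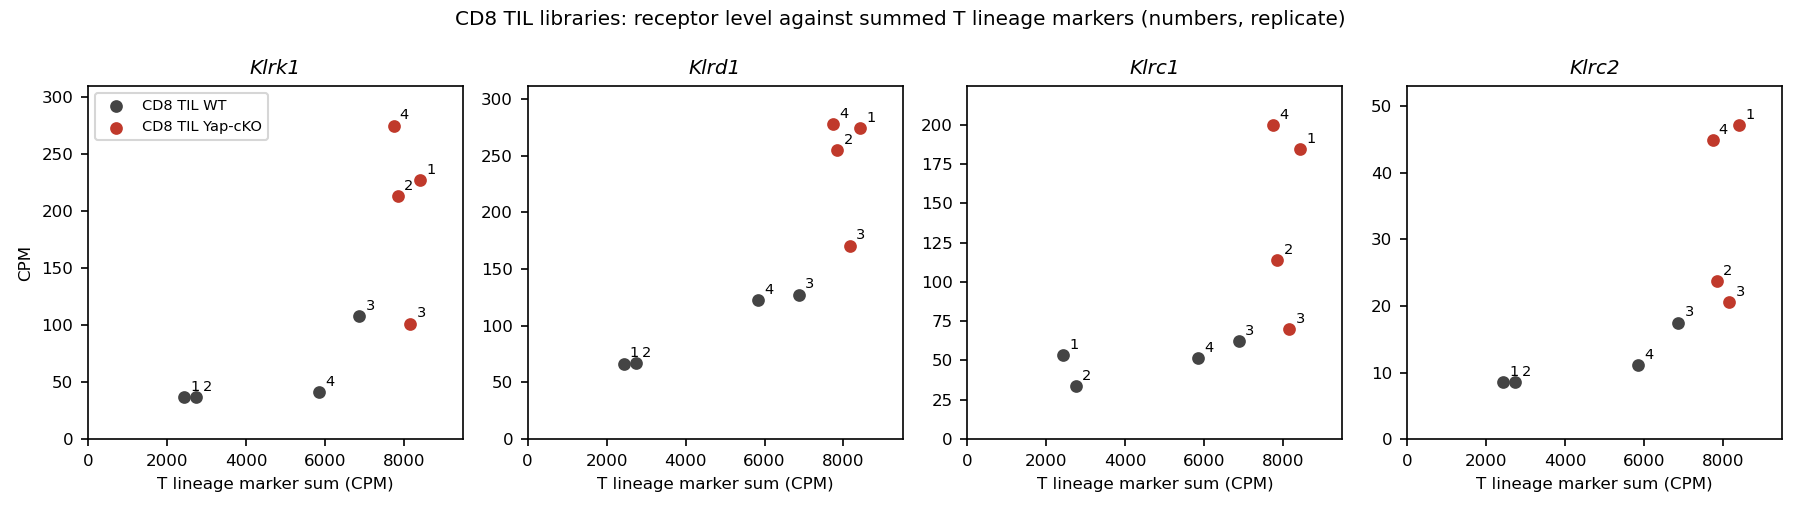
CPM of Klrk1, Klrd1, Klrc1 and Klrc2 (vertical axes) against the summed CPM of 15 T lineage markers (horizontal axes) in the 8 CD8 TIL libraries, numbered by replicate. WT replicates 1 and 2 lie at 2430 and 2741 CPM of T lineage markers, and all Yap-cKO libraries lie at 7740 CPM or above.

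In CD45 cells from tumors, 0 of the 8 receptors were called by edgeR and 0 by DESeq2, and 3 (Klrk1, Klrc1 and Klrc2) had an unadjusted p under 0.05. Of all 13628 genes tested there, 0.991% were called and 17.8% had such a p. Klrk1 was 107.6, 107.9, 84.6 and 107.7 CPM in WT CD45 TILs and 104.8, 157, 162 and 145 CPM in Yap-cKO. Yap-cKO replicate 1 was inside the WT range and the other 3 above it (0.45 ± 0.17 log2, adjusted p = 0.216). Klrd1 was 94.9, 84.0, 72.4 and 52.4 CPM in WT against 73.4, 83.6, 71.9 and 88.6 CPM in Yap-cKO, a difference of 0.03 ± 0.19 log2. The NK1.1 and NKp46 genes had overlapping groups. Klrb1c was 54.4, 44.4, 39.8 and 50.8 CPM in WT against 51.0, 63.8, 58.0 and 56.2 CPM in Yap-cKO (0.25 ± 0.15 log2), and Ncr1 was 54.0, 53.5, 43.6 and 59.5 CPM in WT against 50.5, 70.0, 60.9 and 66.0 CPM in Yap-cKO (0.21 ± 0.16 log2). All 8 differences lay between 0.03 and 0.55 log2, with a median of 0.36 against 0.01 over all genes. Summed NK lineage markers, which do not include the 8 receptors, were 710 to 936 CPM in WT against 1004 to 1623 CPM in Yap-cKO CD45 TILs, and their part in these values was not tested.

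**Figure D3:**
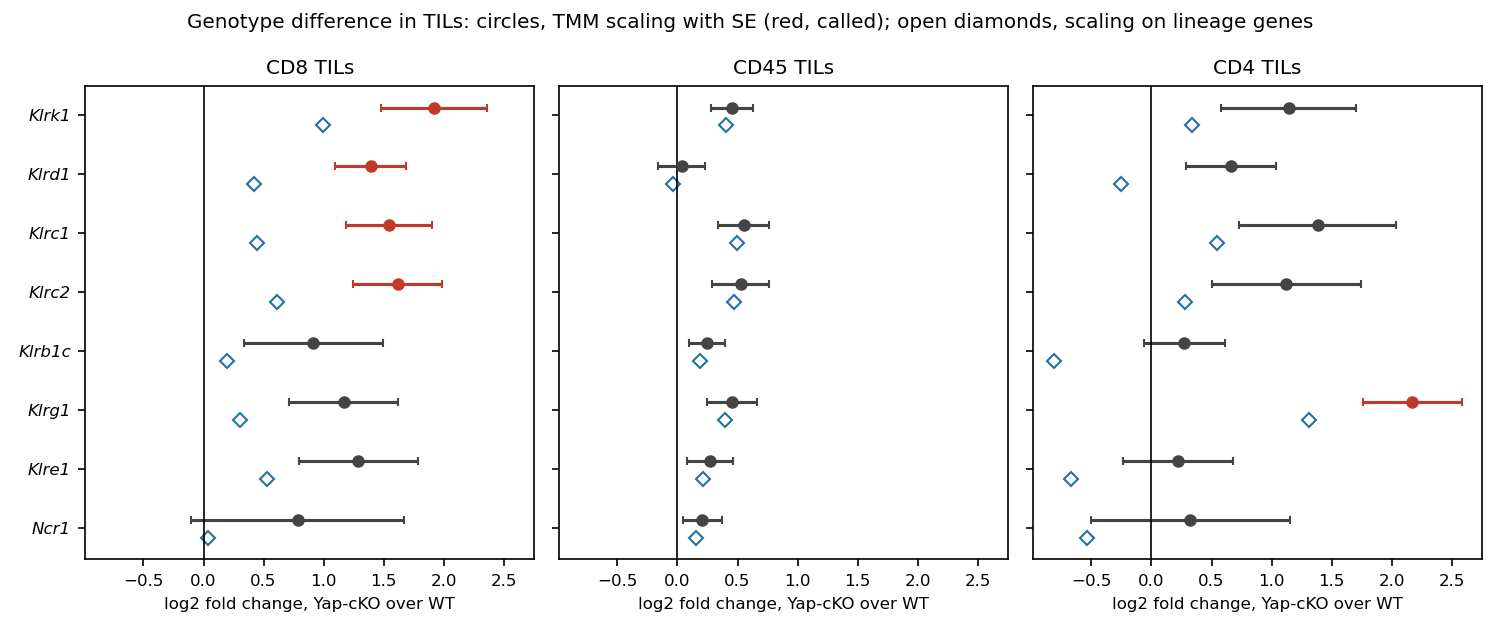
Difference between Yap-cKO and WT (log2 fold change) for each receptor in CD8, CD45 and CD4 TILs, with circles and SE bars from the edgeR fit (red where called) and open diamonds, drawn without error, after scaling on lineage markers (T lineage for CD8 and CD4, pan-leukocyte for CD45). In CD8 TILs the diamonds lie between 0.04 and 0.99 and the circles between 0.78 and 1.92.

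Whether the genotype difference itself differed between cell types or tissues was tested with interaction terms, and 0 receptors were called in any of them. Between CD45 and CD8 TILs the difference of differences ran from -1.47 ± 0.49 log2 for Klrk1 to -0.58 ± 0.82 for Ncr1, with the smallest adjusted p for Klrd1 (-1.36 ± 0.35 log2, adjusted p = 0.0566). There 4 receptors had an unadjusted p under 0.05, DESeq2 called 1, and of all genes 1.82% were called and 17.7% had such a p. Between tumor and TDLN within CD8 cells it ran from 0.89 ± 0.35 log2 for Klrd1 to 2.11 ± 0.70 for Klrk1 (adjusted p = 0.163), with 5 receptors at an unadjusted p under 0.05, 1 called by DESeq2, and 0.422% of all genes called and 15.6% at such a p. Between tumor and TDLN within CD45 cells, 0 receptors had an unadjusted p under 0.05, DESeq2 called 0, and of all genes 0.0% were called and 8.38% had such a p. Without CD8 TIL WT replicate 3, 3 receptors were called in the first of these and 2 in the second. In the first, 2 were called without CD8 TIL Yap-cKO replicate 3 and 1 without CD8 TIL WT replicate 4.

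CD4+ TILs carried a receptor of the same family at a high level. Klrg1, the cadherin receptor, was 40.7, 85.3, 141 and 60.3 CPM in WT against 379, 414, 210.1 and 358 CPM in Yap-cKO, with every Yap-cKO library above every WT library. The difference was 2.17 ± 0.41 log2 (adjusted p = 0.0134), a 4.50-fold higher level, and the other 7 receptors were not called there, against 1.36% of all genes called higher and 6.09% higher without overlap. It stayed called without any 1 of the 8 libraries (1.90 to 2.50 log2). With scaling on T lineage markers it was 1.31 log2 (adjusted p = 0.056), while the median of all genes moved from 0.14 to -1.08 and Klrg1 stood 2.39 above it, and with the Y-linked covariate it was 2.70 log2 (adjusted p = 0.224). Without Yap-cKO replicate 3, Klrk1 and Klrc1 were called as well (3 receptors in all). The genes listed as markers of type 2 innate lymphoid cells (6 genes such as Il1rl1 and Areg) were 74.8 to 145 CPM in WT against 103 to 1564 CPM in Yap-cKO CD4 TILs, with 4 of 6 called higher. Their sum was 52.1 to 98.7 CPM in WT CD4 TDLN cells, above the 7.84 to 14.6 CPM of WT CD45 TDLN cells. It is thus not particular to innate lymphoid cells. The CD4 TIL libraries also held 2056 to 7627 CPM of T lineage markers in WT against 7823 to 12213 CPM in Yap-cKO, and 5303 to 16641 CPM of melanoma markers against 160 to 2200 CPM, with 4 of 7 called lower. The part of the 6 listed genes and of the melanoma markers in the Klrg1 difference was not tested. In CD8 TILs Klrg1 was 7.51 to 30.6 CPM in WT and 20.7 to 51.1 in Yap-cKO.

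In the draining node, 0 receptors were called between genotypes in any of the 3 cell types by edgeR or by DESeq2. The share of all genes called was 0.0158% in CD8 cells, where 6 receptors were tested, 0.0596% in CD45 cells, where 8 were, and 0.0462% in CD4+ cells, where 5 were. At an unadjusted p under 0.05 there was 1 receptor in CD8 cells, 0 in CD45 cells and 1 in CD4+ cells, in both cases Klrd1, against 0.949%, 2.91% and 1.75% of all genes. In CD8 TDLN cells Klrd1 was 117.6, 132, 91.4 and 147 CPM in WT against 194, 169, 156 and 154 CPM in Yap-cKO. All 4 Yap-cKO libraries were above the WT libraries, as for 0.925% of all genes without overlap in either direction, but the difference of 0.47 ± 0.19 log2 did not pass (adjusted p = 0.999). In CD4 TDLN cells Klrd1 was 2.18 to 4.04 CPM in WT against 4.44 to 7.36 CPM in Yap-cKO, also without overlap, as for 1.22% of all genes (0.71 ± 0.31 log2, adjusted p = 0.97). The receptors below the count filter were Klrg1 and Ncr1 in CD8 TDLN cells and Klrc1, Klrc2 and Ncr1 in CD4 TDLN cells, and these were not tested.

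The tumor and the node differed for most receptors in each cell type. In WT CD8 cells 5 of 6 tested receptors were higher in TILs than in the TDLN, against 22.5% of all genes called higher, and in Yap-cKO CD8 cells 5 of 6 were, against 10.9%. These counts leave out receptors that had at most 1 library with 10 counts in the lower group, since they passed the count filter through the group where they were high, and such receptors are given below as levels without a fold. Klrk1 rose from 5.49, 6.00, 3.34 and 14.5 CPM in WT CD8 TDLN cells to 36.8 CPM or more in every WT CD8 TIL library (2.98 ± 0.51 log2, adjusted p = 7.5e-04). In Yap-cKO it went from 4.10, 9.505, 8.82 and 2.49 CPM to 101.5 CPM or more (5.08 ± 0.51 log2). Klrc1 had differences of 2.93 and 4.71 log2 in WT and Yap-cKO, Klrc2 of 2.21 and 4.10, Klrb1c of 2.17 and 3.22, and Klre1 of 1.68 and 3.45. Klrg1 had 2 to 8 counts in each CD8 TDLN library and 7.51 CPM or more in each CD8 TIL library, which makes it a receptor left out of the count. In WT CD8 cells Klre1 was no longer called without TDLN replicate 1, 2 or 3 or TIL replicate 3, and Klrb1c without TDLN replicate 1 or TIL replicate 3. Ncr1, also left out, had 1 to 6 counts in each Yap-cKO CD8 TDLN library and 36 to 66 in each Yap-cKO CD8 TIL library.

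Klrd1 was the exception in CD8 cells. CD94 transcripts were already 91.4 CPM or more in every CD8 library from the node, and the TIL against TDLN difference was -0.31 ± 0.28 log2 in WT (adjusted p = 0.408) and 0.61 ± 0.21 in Yap-cKO (adjusted p = 0.0641). Scaling on T lineage markers turned the WT value to 1.078 log2 (adjusted p = 0.0274), with the median of all genes moved from -0.02 to 1.55, so that Klrd1 stood -0.29 from the median gene before and -0.48 after. Per length, Klrd1 far exceeded its partners Klrc1 and Klrc2, and also Klrk1, in the node. The TPM ratio of Klrc1 to Klrd1 was 0.0246 ± 0.0087 in WT CD8 TDLN cells and 0.241 ± 0.0780 in WT CD8 TILs. That of Klrc2 to Klrd1 was 0.0076 ± 0.0049 and 0.0555 ± 0.0057, and that of Klrk1 to Klrd1 was 0.0187 ± 0.0096 and 0.283 ± 0.108 (SD, n = 4). Each ratio was higher in every TIL library than in every TDLN library of that genotype.

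**Figure D4:**
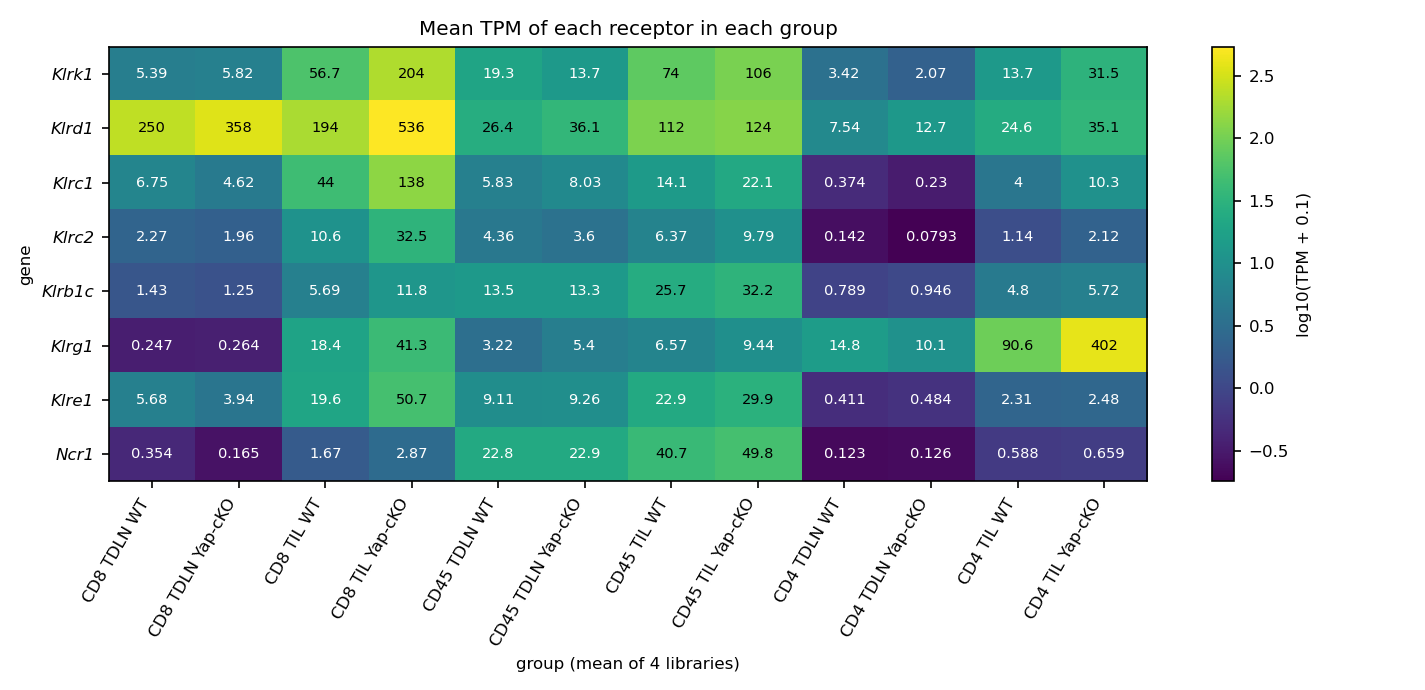
Mean TPM of each receptor in each group of 4 libraries, colored on a log10 scale, so that genes can be compared per length. Klrd1 is 250 and 358 TPM in CD8 TDLN cells, where Klrk1 is 5.39 and 5.82, and Klrg1 reaches 402 TPM in Yap-cKO CD4 TILs.

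In the CD45 cells, 7 of 8 receptors were higher in TILs than in the TDLN in WT and 7 of 8 in Yap-cKO, against 21.9% and 21.8% of all genes called higher. Ncr1, the most NK-restricted of the group, was 11.4, 42.7, 16.7 and 16.4 CPM in the WT node and 43.6 to 59.5 CPM in WT tumors (1.24 ± 0.37 log2, adjusted p = 0.017). WT TDLN replicate 2 reached just under the lowest tumor library, and that library was also the highest of its group for Klrk1, Klrd1, Klrc1, Klrc2, Klrb1c and Klre1. Klrk1 was 8.85, 55.2, 13.1 and 10.2 CPM in the WT node against 84.6 CPM or more in the tumor (2.19 ± 0.54 log2), and 3.00 ± 0.29 log2 higher in Yap-cKO tumors. Unlike in CD8 cells, Klrd1 was higher in tumor CD45 cells, by 2.51 ± 0.30 log2 in WT and 2.04 ± 0.24 in Yap-cKO. The exceptions were Klrc2 in WT (0.91 ± 0.50 log2, adjusted p = 0.15) and Klrg1 in Yap-cKO (1.01 ± 0.48 log2, adjusted p = 0.0923). Without WT TDLN replicate 2 all 8 were called in WT, and over the fits that left out a library the count ran from 5 to 8, since Klrc1 was not called without TDLN replicate 1 or 3 or TIL replicate 1, nor Ncr1 without TDLN replicate 3 or TIL replicate 1 or 4. Klrg1 was called in Yap-cKO without TDLN replicate 3. In the CD45 sorts the NK lineage markers were 342 to 470 CPM in the WT node and 710 to 936 CPM in the WT tumor, beside 6603 to 8213 CPM of B cell markers in the former and 22511 to 32275 CPM (7 genes) of macrophage and monocyte markers in the latter. In CD4+ cells 4 of 4 receptors were higher in the tumor in WT (22.9% of all genes) and 5 of 5 in Yap-cKO (12.4%), counted in the same way. Left out there were Klrc1 (3 to 7 counts in WT TDLN libraries, and 0 in 3 of 4 Yap-cKO TDLN libraries) and Klrc2 (0 to 9 and 0 to 3 counts), and in WT Klre1 (7 to 14 counts). The rise of Klre1 in Yap-cKO CD4+ cells was not called without TDLN replicate 2, 3 or 4 or TIL replicate 2.

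Set against CD8 cells from the same site, the CD45 cells were marked by Klrb1c and Ncr1. In WT TILs Klrb1c was 39.8 to 54.4 CPM in CD45 cells and 2.28, 3.95, 16.99 and 8.54 CPM in CD8 cells (2.64 ± 0.53 log2, adjusted p = 0.00272), and Ncr1 differed by 5.18 ± 0.84 log2 (adjusted p = 7.5e-04). Klrc1 was lower in CD45 cells (-1.13 ± 0.27 log2, adjusted p = 0.00737). These 3 were called, against 32.7% of all genes. In Yap-cKO TILs 6 were called, against 32.5%: Klrb1c and Ncr1 were higher by 1.92 and 4.56 log2, and Klrd1 (-1.67), Klrc1 (-2.18), Klrc2 (-1.18) and Klrg1 (-1.71) were lower in CD45 cells. Klrk1 differed by 0.93 ± 0.36 log2 in WT (adjusted p = 0.0639) and by -0.58 ± 0.30 in Yap-cKO (adjusted p = 0.136). Same-numbered CD45 and CD8 libraries of WT TILs deviated together, and with the replicate block Klrk1 was called there (1.14 log2, adjusted p = 0.0241), for 4 receptors in all. With scaling on pan-leukocyte markers 6 were called in WT TILs, 2 higher and 4 lower in CD45 cells, and Klrk1 was -0.35 log2, while the median of all genes moved from -0.05 to -1.54 and Klrk1 stood 0.98 above it before and 1.19 after. Without CD8 replicate 3, Klrc1 was not called and Klrk1 and Klre1 were. Klrg1 was called lower without CD8 replicate 1, and in Yap-cKO Klrc2 was not called without CD8 replicate 4. In the node Klrd1 was lower in CD45 cells by 3.19 log2 in WT and 3.20 log2 in Yap-cKO, while Klrb1c (3.47 and 3.56) was higher, and Klrk1 (1.44) and Klre1 (1.18) were also called higher in Yap-cKO. The Klrk1 and Klre1 calls were lost without CD8 replicate 1 or 4, without CD45 replicate 2, and without CD45 replicate 1 for Klrk1 or 3 for Klre1, in WT Klrk1 was called without CD8 replicate 4, and in Yap-cKO Klrc2 was called without CD45 replicate 4. That made 2 of 6 receptors called in the WT node and 4 of 6 in the Yap-cKO node, against 23.1% and 22.9% of all genes, without Klrg1 and Ncr1, which were low in CD8 node cells. Klrg1 had 2 to 8 counts in each CD8 TDLN library and 32 to 210 in each CD45 TDLN library, and Ncr1 had 1 to 16 and 204 to 927.

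In Yap-cKO tumors, CD8+ and CD4+ T cells were separated by the CD94 and NKG2 genes on the CD8 side and by Klrg1 on the CD4 side. In Yap-cKO TILs 6 receptors were called, against 2.49% of all genes: Klrk1 (2.79 log2), Klrd1 (3.95), Klrc1 (3.93), Klrc2 (3.82) and Klre1 (4.11) were higher in CD8 cells and Klrg1 (-3.25) was lower. Klrk1 was called only without CD8 or CD4 replicate 3 among the 8 fits that left out a library, and Klrc1 was not called without CD8 replicate 4 or CD4 replicate 2 or 4. Same-numbered libraries of these groups deviated together, and the replicate block added Ncr1 (2.05 log2, adjusted p = 0.0422). In WT TILs 2 were called, Klrd1 (3.17 log2) and Klrc1 (3.78), against 0.119%, while DESeq2 called 6, the fit without a count filter 4 and the fit with the replicate block 5, 4 higher and 1 lower in CD8 cells. Not called by edgeR there were Klrk1 (2.02 log2, adjusted p = 0.237) and Klrc2 (3.32, adjusted p = 0.0702). Klre1 (3.01, adjusted p = 0.128) and Klrg1 (-2.28, adjusted p = 0.168) did not pass either. Without CD8 replicate 3, CD8 replicate 4, CD4 replicate 2 or CD4 replicate 4, 1 was called. In the WT node Klrd1 (5.16 log2 higher in CD8 cells) was called among 3 receptors, against 3.76% of all genes. There too the numbers paired the libraries, and the block added Klrk1 (1.34 log2, adjusted p = 0.0062). In the Yap-cKO node 2 of 4 were called, against 2.49%, Klrd1 at 4.92 log2 and Klre1 at 2.30, of which Klre1 was not called without CD8 replicate 2 or CD4 replicate 3. These counts for the node leave out receptors low in either cell type. Klrg1 had 51 to 408 counts in each CD4 TDLN library against 2 to 8 in each CD8 TDLN library, whereas Klrc1, Klrc2 and, in WT, Klre1 were low on the CD4 side, at the counts given above, against 15 counts or more in each CD8 TDLN library.

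In the tumor, the forms of Klrk1 transcript had different shares in CD45 and CD8 cells. Mouse NKG2D has a long form that pairs with DAP10 and a short form, lacking residues at its start, that can also pair with DAP12. In the annotation Klrk1-201 begins in its own first exon (129622537 to 129622772), has its start codon there and codes for 232 residues. Klrk1-202 begins upstream in another first exon (129623811 to 129623841), starts in exon 2 and codes for 219 residues, 13 fewer, and Klrk1-205 shares that upstream exon (to 129623864, inside the promoter window printed above) and codes for 225. Klrk1-202 held 23.8% of pooled Klrk1 counts in WT CD45 TILs (13.7% to 34.0% over libraries) and 17.8% in Yap-cKO CD45 TILs (12.4% to 23.7%). In CD8 TILs it held 0.483% (0 to 2.58%) and 1.93% (0 to 6.05%), so no CD8 TIL library reached the lowest CD45 TIL library. In CD45 cells from the node it held 2.21% (0 to 3.31%) and 3.19% (0 to 6.27%). CD8 cells of the node had few Klrk1 counts, and its share there reached 25.9% in a Yap-cKO library. Klrk1-201 went the other way, at 53.6% and 49.0% in CD8 TILs and 26.8% and 32.3% in CD45 TILs. Klrk1-201 and Klrk1-202 left a large share of the counts to other transcripts such as Klrk1-205, which is not placed here as long or short form. These transcripts overlap over most of their length, and their counts are estimates whose error was not analysed here, so the shares are given without a test.

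**Figure D5:**
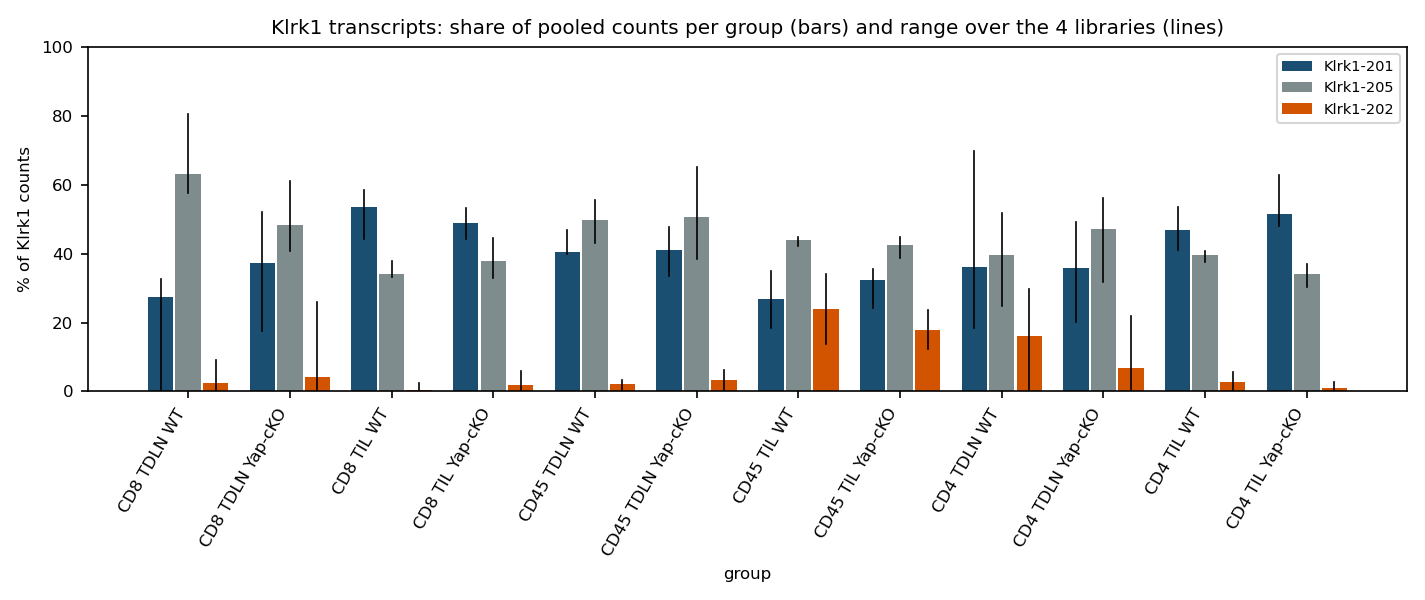
Share of Klrk1 counts assigned to each of 3 transcripts in every group, with bars for the counts pooled over 4 libraries and lines for the lowest and highest library. The pooled share of Klrk1-202 is 23.8% and 17.8% in the CD45 TILs and at most 4.13% in the CD8 groups.

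Among related genes, 29 other NK receptor genes, 25 signaling partners, 16 NK lineage genes and 17 ligands were counted in the same genotype fits. In CD8 TILs, where 3.03% of all genes were called higher and 9.14% lower, 8 of 23 tested receptors were higher and 0 lower, with a median of 1.30 log2 against 0.08 over all genes. They included Cd96 (1.71 log2), Cd226 (1.498), Fcgr3 (1.61), Slamf7 (1.17) and Klrb1a (1.76), of which Cd96 and Cd226 encode paired receptors for nectin-like ligands and Fcgr3 encodes an antibody receptor that macrophages also express. Myeloid cells express Lat2 and Cfp, named next, as well, and the macrophage and monocyte markers moved with these genes (5 of 7 higher, median 1.53 log2), a part that was not tested. Of 23 tested signaling partners 4 were higher and 0 lower (median 0.86 log2): Vav3 (1.70), Lcp2 (1.14), Lat2 (1.98) and Pik3r1 (1.496), which encode adaptors and enzymes that act downstream of activating receptors. The 2 NKG2D adaptors did not pass, with Hcst at 0.89 ± 0.37 log2 (adjusted p = 0.119) and Tyrobp at 1.03 ± 0.41 (adjusted p = 0.109). Hcst was 66.8 to 191 CPM in WT and 185 to 293 in Yap-cKO CD8 TILs but 26.4 to 47.4 CPM in CD45 TILs, whereas Tyrobp was 15.1 to 94.8 CPM in CD8 TILs and 1181 to 2374 in CD45 TILs. Of 15 tested NK lineage genes 2 were higher, the transcription factor gene Eomes (1.35 log2) and Klrb1a, which is on both lists, and 0 were lower.

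Of the ligand genes 9 were tested in CD8 TILs, with 1 higher and 3 lower. Raet1e, an NKG2D ligand gene among the 3, was 2.37 to 7.55 CPM in WT against 0 to 0.503 CPM in Yap-cKO. It passed the count filter almost only through the WT libraries, so its level is given without a fold. Raet1d differed by -2.73 log2 and Cdh2, for N-cadherin, by -3.22 log2. Whether Raet1d and Cdh2 passed the filter in the same way was not examined. The ligand genes that were lower moved with the melanoma markers given above, whose part was not tested. The properdin gene Cfp was higher (1.72 log2), and H2-T23 (0.61 ± 0.30 log2, adjusted p = 0.176) and Cdh1 (0.70 ± 0.67 log2, adjusted p = 0.475) did not pass. In CD45 TILs 0 genes of the 4 lists were called (24, 25, 16 and 9 tested, medians of 0.37, 0.23, 0.50 and -0.01 log2 in the order above), with Hcst at -0.24 log2, Tyrobp at -0.29, Raet1e at -0.57, H2-T23 at 0.01 and Cdh1 at 1.27 (adjusted p = 0.191). In CD4 TILs, where 1.36% of all genes were called higher and 6.66% lower, 1 of 13 receptors and 1 of 23 partners were higher, 0 of 10 NK lineage genes were called, and 3 of 9 ligand genes were lower, and in the TDLN groups 0 genes of these lists were called.

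Genes whose levels were most like each receptor over the 48 libraries (Pearson's r of log2(CPM + 1) among 12308 genes, given as a description since the points share cell type and site) differed by pattern. Klrk1 was most like Klra9 (r = 0.922) and Lilrb4a (0.9003), and Klrd1 was most like Eomes (0.915), Ly6c2 (0.912) and Samd3 (0.902). Klrc1 had Klra1 (0.921), Klra7 (0.913) and Chst11 (0.865), Klrc2 had Klra7 (0.961), Slamf7 (0.894) and Klra1 (0.889), and Klre1 had Klra7 (0.974), Slamf7 (0.914) and Klra9 (0.896). Klrk1, Klrc1, Klrc2 and Klre1 thus had genes of the Klra family, which encode the Ly49 receptors, among their nearest. Klrb1c was most like Tyrobp (0.946), Plbd1 (0.934) and Fcgr2b (0.934), and Ncr1 most like Pira2 (0.971) and Scimp (0.969), several of which are genes of myeloid cells. Klrg1 was most like Gm6637 (0.946), Dkkl1 (0.904) and Krt83 (0.896).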

How the data were processed

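The authors sorted live cells by flow cytometry, made cDNA with a SMART-Seq v4 kit and sequenced 48 libraries. Per the labels, reads were trimmed with Trimmomatic, checked with FastQC and quantified with Salmon 0.9.1, with mm10 as the genome build in the submitters' processing notes. The deposited tables hold, for each transcript, the estimated count that Salmon gave the authors, its TPM (scaled by the authors for length and depth) and its effective length. These deposited estimated counts were not normalized by the authors. Transcripts were mapped by identifier to GENCODE M21 (34932 genes), which left 0.0488% to 0.180% of counts of a library unmatched, and estimated counts were added up within each gene, then rounded to integers. TPM was summed per gene and used only to set genes side by side.

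The 8 receptors and all gene lists were chosen with earlier results of these data known. Genes reaching 10 counts in 4 or more of the compared libraries were tested with edgeR 4.0.16 (TMM scaling, quasi-likelihood test, Benjamini-Hochberg adjustment over all genes tested, two-sided) in R 4.3.3, with limma 3.58.1 loaded. Calling a gene took an adjusted p below 0.05 together with a log2 difference beyond 1 in either direction. Each comparison was fitted on the groups it names, and interactions on their 4 groups. CPM used TMM over the 16869 genes kept in the 48 libraries. The alternatives were DESeq2 1.42.0 with its size factors, no count filter, offsets for transcript length, the replicate number as a block, scaling on 15 T lineage markers (10 pan-leukocyte markers where CD45 cells enter), a covariate for Y-linked genes, adjusted p alone, each library left out, and, added after seeing the data, CD8 TILs without WT replicates 1 and 2. Fits were tested on simulated data. The genes named were the 8 receptors, genes of the fixed lists and, for likeness, the 3 with the highest r. Of these last, 2 are not reported here. Shares, promoter matches and plots used Python 3.11.15, pandas 2.3.3 and matplotlib 3.10.9.

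Whether replicates came from separate mice, and whether libraries with the same number came from 1 mouse, is not stated (the study's methods describe CD4+ and CD8+ TILs sorted from the same tumors), so p-values measure the spread between these libraries. Of 72 pairs of replicates 0 were identical. Same-numbered libraries were compared through the correlation of their deviations from the group means. Every correlation was over 0.1 in 3 of 8 pairs of cell types (CD8 with CD4 in Yap-cKO TILs and in the WT TDLN, CD45 with CD8 in WT TILs), in 0 of 6 pairs of genotypes and in 0 of 6 pairs of tissues. The floor of 3 counts covers counting error only.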

Additional observations from a re-analysis of the deposited data

Results flagged for a closer look

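Among 96 groups of 4 libraries (8 receptors in 12 groups), 16 held a highest or lowest library set apart from its neighbor. There the gap, as a share of the range of the group, was above Dixon's critical value for 4 values. Independent, normally distributed values pass it by chance in about 1 in 20 groups. These groups share libraries and some lie at the floor, so the count of 16 cannot be set against that rate. The values below are CPM, and no cause was tested. WT replicate 2 of the CD45 TDLN cells accounted for 6 of the 16. It had 55.2 for Klrk1 (8.85 to 13.1 in the other 3 libraries), 20.3 for Klrd1 (10.2 to 11.2), 16.3 for Klrc1 (2.60 to 4.00), 12.8 for Klrc2 (2.35 to 3.87), 14.2 for Klre1 (3.74 to 5.21) and 42.7 for Ncr1 (11.4 to 16.7). Its summed Y-linked genes (4 genes) were 423 CPM against 8.44 to 123 in the other 3 libraries, and its NK lineage markers, 403 CPM, lay inside the range of the group (342 to 470).

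Klrk1 was also set apart in WT CD8 TIL replicate 3, at 107.8 against 36.8 to 41.1, in WT CD45 TIL replicate 3, at 84.6 against 107.6 to 107.9, in WT CD4 TDLN replicate 4, at 7.44 against 1.45 to 1.95, and in Yap-cKO CD4 TIL replicate 3, at 5.82 against 34.9 to 40.1. WT CD8 TIL replicate 3 was the CD8 TIL library of its genotype with the most T lineage RNA (6876 CPM) and the least melanoma RNA (3660 CPM).

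The remaining 6 were single receptors in single groups. Klrc1 was 9.97 in Yap-cKO CD8 TDLN replicate 2 against 3.99 to 4.58, and 0.987 in Yap-cKO CD4 TDLN replicate 2 (18 counts) against 0 in the other 3 libraries. Klrb1c was 3.01 in WT CD4 TDLN replicate 4 against 0.447 to 0.778, and 4.76 in WT CD4 TIL replicate 1 against 7.17 to 7.49. Klrg1 was 12.4 in Yap-cKO CD45 TDLN replicate 3 against 2.30 to 3.83, and Klre1 was 29.5 in WT CD45 TIL replicate 1 against 20.9 to 22.1.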

How the results depend on the processing

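Of the 8 receptors, 4 were called between genotypes in CD8 TILs by edgeR. The count was 0 with scaling on lineage markers, 0 with the Y-linked covariate, 0 without WT replicates 1 and 2 (added after seeing the data), 5 with DESeq2 and 0 to 7 when a library was left out. In CD4 TILs it was 1, or 0 with that scaling, 0 with the covariate and 1 to 3 when a library was left out. For CD8 against CD4 in WT TILs it was 2, or 4 without the count filter, 6 with DESeq2 and 1 to 2 when a library was left out. For CD45 against CD8 in WT TILs it was 3, or 6 with scaling. For the tissue by genotype interaction in CD8 cells it was 0, or 1 without the filter, 1 with DESeq2 and 0 to 2 when a library was left out, and for the cell type by genotype interaction 0, or 1 with DESeq2 and 0 to 3. The causes were not tested. Of 2679 receptor values under an alternative, 73 had another sign than the edgeR value. Among receptors called in some fit of the same comparison, these were Klrd1 in TILs against TDLN in WT CD8 cells (1.078 log2 with scaling) and, for CD45 against CD8 WT TILs, Klrk1 (-0.35 with scaling), Klre1 (-0.38 with scaling, which moved the median of all genes to -1.54, so that Klre1 stood 0.82 above it before and 1.16 after) and Klrc2 (0.0063 without the filter, 0.0004 with the block, and 0.27, 0.06, 0.04 and 0.02 without CD8 replicate 3 or CD45 replicate 2, 3 or 4, from -0.23 to 0.27 over all such fits). None of the values for receptors called by edgeR changed sign in any alternative (1157 values).

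With the replicate number as a block, 0 receptors were called between genotypes in CD8 TILs (adjusted p from 0.0993 to 0.317, log2 differences from 1.21 to 2.06) and 5 for CD8 against CD4 in WT TILs. In the first, the 4 correlations between same-numbered libraries were below 0 (-0.397 to -0.0856). In the second, 3 of 4 were over 0.1 (0.194, 0.673 and 0.785) and the other was 0.0885, so that not every pair reached the limit set for pairing. Where they did, the block added 1 call in each of 3 comparisons.

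The counts limit Ncr1, Klrc1, Klrc2 and Klrg1 most. In CD8 TDLN cells, several libraries were at or near the floor of 3 counts for Klrg1 and Ncr1. The same held for Klrc1, Klrc2 and Ncr1 in CD4 TDLN cells. For these, differences between genotypes were not detectable and the size of a difference from other groups is not fixed.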
